A study of Homo sapiens with 8 samples.

Results

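The 9 genes described here, RIGI, IFIH1, DHX58, TLR3, ZBP1, MAVS, TRIM25, EIF2AK2 and ADAR, encode sensors of double-stranded RNA and the proteins that relay, carry out or restrain their signal. They were chosen by name from what is known of this pathway, and they are 9 of the 19970 protein-coding genes of chromosomes 1 to 22 and X in the RefSeq gene table of GRCh38.p14. For each gene, peaks were collected from the gene body and 50 kb either side. The assay was ATAC-seq: a transposase cuts accessible DNA and tags it with adapters for sequencing. The cells were H1975 and HCC44, human lung cancer lines whose genotype is labelled WT. Both are established lung adenocarcinoma lines. Cells of each line received DMSO, the solvent, or ACBI1, labelled 1 mM, for 96 h, with 2 samples in each of the 4 groups. ACBI1 degrades SMARCA2 and SMARCA4, the motor subunits of SWI/SNF chromatin remodelling complexes, together with the subunit PBRM1; protein levels were not analysed here.

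Double-stranded RNA in the cytosol is bound by the helicases RIG-I (the product of RIGI) and MDA5 (of IFIH1), which assemble on the mitochondrial adaptor MAVS and switch on interferon genes. LGP2 (of DHX58) tunes both helicases, TLR3 reads double-stranded RNA in endosomes, and ZBP1 binds nucleic acid in the left-handed Z form. TRIM25 is a ubiquitin ligase known for activating RIG-I, PKR (of EIF2AK2) arrests translation when it binds double-stranded RNA, and ADAR edits adenosines in cellular RNA so that it is not taken for foreign. Several of these genes are themselves induced by interferon.

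In what follows, values before "against" are the DMSO replicates and those after it the ACBI1 replicates. Whole lists held 43525 and 41027 against 27682 and 22133 peaks in H1975, and 50347 and 49945 against 26313 and 24862 in HCC44. The lists were therefore shorter in every ACBI1 sample, and the main counts below are set beside the same counts over all genes or over the whole lists. The number of reads is unknown, so no counting interval can be given, and a missing peak is not a measurement of closed chromatin. Nothing in the labels says that the 2 samples of a group were separate cultures, so the spread between them may be technical. Promoter peaks were present at the epithelial keratin genes KRT8, KRT18 and KRT19 in 4 of 4 samples of each line and at the leukocyte gene PTPRC in none. The leukocyte genes CD14 and CD3E had such peaks in 4 and 2 H1975 samples and in 4 and 1 HCC44 samples. These marker genes were chosen after the lists had been seen. SMARCA4, SMARCA2 and PBRM1 had a promoter peak in all 8 samples, which is no check of the degradation of their proteins.

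Around the 9 genes, fewer peaks were listed with ACBI1, and the difference lay mostly in peaks away from gene starts. The 9 windows together contained 49 and 46 against 32 and 29 peaks in H1975, and 54 and 49 against 35 and 33 in HCC44. A promoter peak was one that reached within 1 kb of a listed start of the gene, or of either end for a gene with no listed start, and a distal peak reached within 1 kb of no gene's start. Promoter peaks of the 9 genes numbered 8 and 8 against 8 and 7 in H1975 and 10 and 9 against 9 and 9 in HCC44. Distal peaks numbered 29 and 26 against 12 and 10 in H1975. In HCC44 the distal peaks numbered 30 and 26 against 14 and 12. The distal share of the surrounding peaks was 59.2% and 56.5% against 37.5% and 34.5% in H1975. In HCC44 this share was 55.6% and 53.1% against 40% and 36.4%. The whole lists had the same direction: their distal share was 73.7% and 72.1% against 59.6% and 51.1% in H1975, and 76.7% and 76.6% against 58.7% and 56.7% in HCC44.

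**Figure D1:**
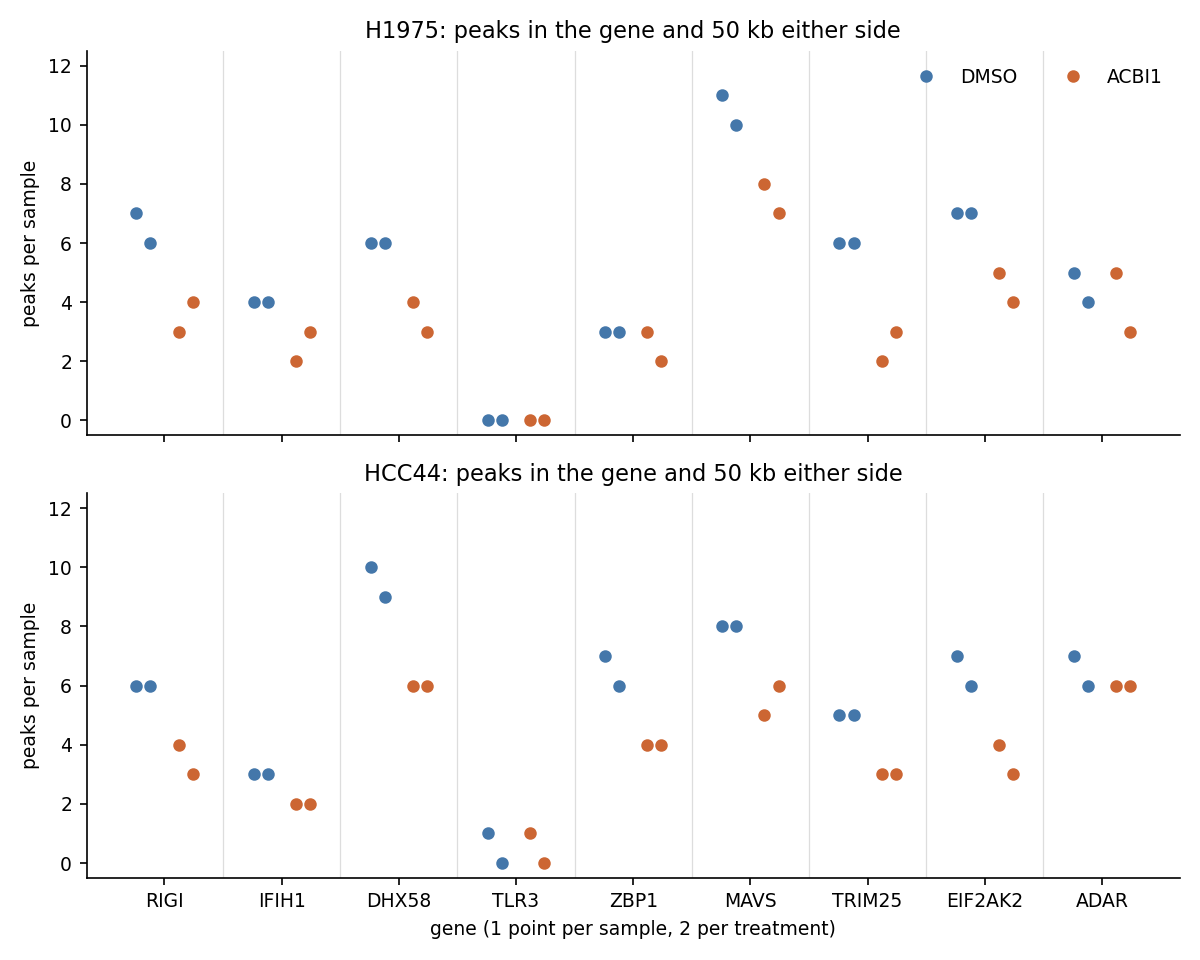
Number of listed peaks in each gene and 50 kb either side (y axis, peaks per sample) for the 9 genes (x axis), with 1 point per sample, DMSO in blue and ACBI1 in orange, H1975 above and HCC44 below. RIGI, IFIH1, DHX58, MAVS, TRIM25 and EIF2AK2 lay lower in both ACBI1 samples of both lines, TLR3 lay at 0 or 1 throughout, and the ADAR points met or overlapped in both lines.

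Taken gene by gene, both ACBI1 samples held fewer surrounding peaks than both DMSO samples for 6 of the 8 genes with any such peak in H1975, where the same held for 49.8% of all genes. ADAR and ZBP1 were the exceptions in H1975. In HCC44 it held for 7 of 9 genes, against 62.9% of all genes, and TLR3 and ADAR were the exceptions. It held in both lines for 6 of 8 genes, namely RIGI, IFIH1, DHX58, MAVS, TRIM25 and EIF2AK2, against 40.3% of all genes. The genes are few, and the differences from the shares over all genes were not tested. No gene of the 9 had more peaks in both ACBI1 samples in either line, against 1.65% of all genes in H1975 and 2.03% in HCC44. The median change was -2.5 peaks in each line, over the 8 genes with DMSO peaks in H1975 and all 9 in HCC44. Over all genes it was -1 in H1975 and -1.5 in HCC44. The number of ACBI1 peaks as a percentage of the number of DMSO peaks had a median of 63.4% over these genes in H1975 and 63.2% in HCC44. Over all genes this median was 75% and 66.7%. The percentage compares counts and does not follow single peaks. When every list was shortened to its strongest 22133 peaks, 2 of the 9 genes were lower in H1975 (EIF2AK2 and TRIM25) and 1 in HCC44 (RIGI), against 14% and 16.3% of all genes. At that setting 1 gene was higher with ACBI1 in H1975 (ZBP1) and 3 in HCC44 (DHX58, ZBP1 and ADAR), against 28.5% and 36% of all genes. In the gene bodies alone, 2 genes were lower in H1975 (ZBP1 and TRIM25) and 3 in HCC44 (these and EIF2AK2), against 28.5% and 36.6% of all genes.

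The exact permutation test, two-sided and with labels permuted within each line, has 36 arrangements and a smallest possible p of 0.0556, so no gene can pass 0.05. For RIGI, IFIH1, DHX58, MAVS, TRIM25 and EIF2AK2 the exact permutation p was this smallest value, and the Benjamini-Hochberg adjusted p over 18040 genes was 0.147. For ZBP1 it was 0.167 and for ADAR 0.667 before adjustment (exact permutation test).

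The sensor gene RIGI lies on the minus strand of chromosome 9, from 32455302 to 32526196, and spans 70.9 kb. Among those of the 9 genes with a promoter peak in every sample, it had the largest fall in promoter peak width. The fall was taken over both lines on the log2 scale, with widths summed over a gene's starts. Its 250 bases upstream of the start, chr9:32526197-32526446 on the minus strand, are shown because the upstream edge of this peak lay beyond them in every sample. The capitals mark a GC box, CCGCCC, the reverse complement of GGGCGG, whose first base lay 163 bases before the start.
RIGI: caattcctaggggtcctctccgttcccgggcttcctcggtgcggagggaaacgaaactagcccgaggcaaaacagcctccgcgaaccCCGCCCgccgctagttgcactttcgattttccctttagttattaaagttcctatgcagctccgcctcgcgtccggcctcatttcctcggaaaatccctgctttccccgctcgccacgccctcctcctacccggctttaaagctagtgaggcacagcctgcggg
This sequence and those below are RefSeq reference sequence of GRCh38.p14, printed from far upstream towards the start; 7 of the 9 genes matched that table.

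The peak over the RIGI start was 1398 and 1557 bp wide in the H1975 DMSO samples and 863 and 669 bp in the ACBI1 samples. In HCC44 it was 1370 bp wide in both DMSO samples and 745 and 863 bp with ACBI1. All 4 ACBI1 widths lay below all 4 DMSO widths. The narrowing was on the gene side alone. The upstream edge lay between -510 and -493 bp from the start in all 8 samples. The downstream edge lay 893 and 1063 bp into the gene against 352 and 166 bp in H1975, and 867 and 867 bp against 242 and 360 bp in HCC44. The mean width changed from 1478 ± 112 bp to 766 ± 137 bp (SD, n = 2) in H1975, a log2 change of -0.96 against a pooled SD between samples of 0.2. In HCC44 it changed from 1370 ± 0 bp to 804 ± 83.4 bp (SD, n = 2), a log2 change of -0.77 with a pooled SD of 0.11. Over both lines the log2 change was -0.87, with the smallest exact permutation p of 0.0556 and an adjusted p of 0.123 over the 10737 genes with a promoter peak in every sample. Of those genes, 3.57% narrowed by more; RIGI was singled out after its values were seen. Within each list the RIGI promoter peak ranked between the 66.3rd and the 78.2nd percentile by the authors' −log10 q, where 100 is the strongest, near the median promoter peak of the lists (70.3 to 78.6). Ranks from lists of different lengths show no change and are given only to describe peaks.

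**Figure D2:**
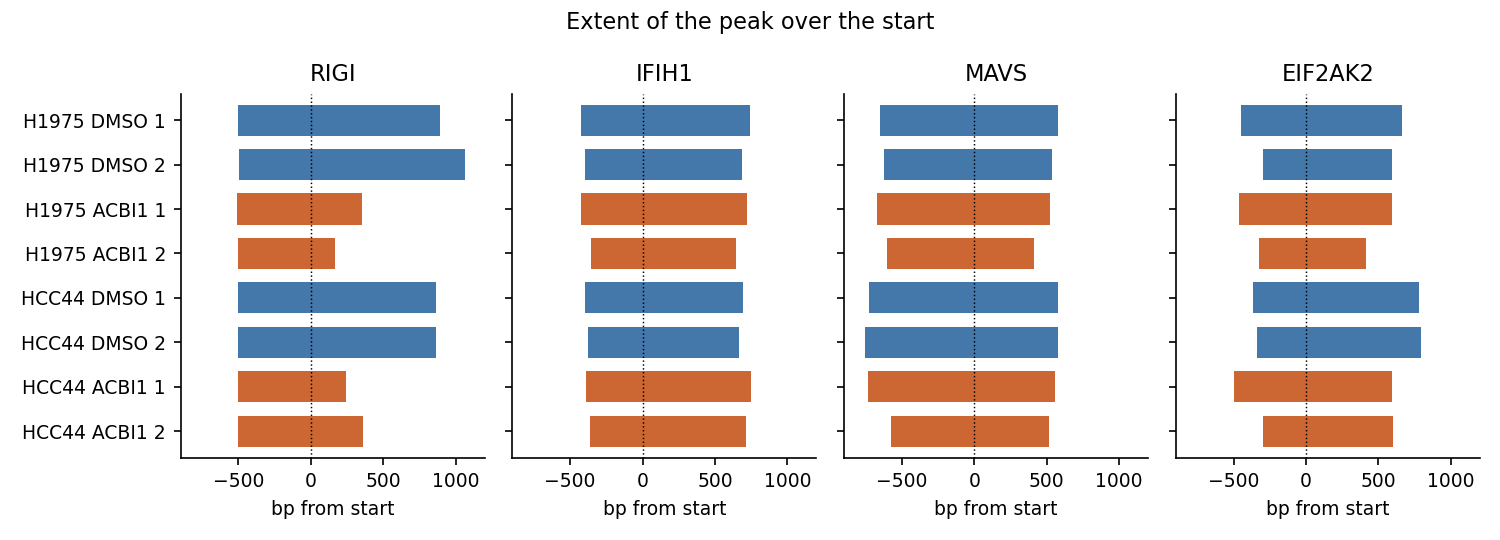
Extent of the single peak over the start of RIGI, IFIH1, MAVS and EIF2AK2 (x axis, bp from the start, positive into the gene) in each of the 8 samples (rows), DMSO in blue and ACBI1 in orange. The RIGI peak ended 867 to 1063 bp into the gene with DMSO and 166 to 360 bp with ACBI1, with its upstream edge at nearly the same base in all samples, while the IFIH1 peak ended between 648 and 749 bp in all samples.

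A retreat of the downstream edge was common. Among 6276 genes with 1 listed start and 1 promoter peak in every sample, it lay nearer the start in both ACBI1 samples of both lines for 51.3%, and the upstream edge did so for 21.2%. The median shift over those genes was -107 bp for the downstream edge. RIGI shifted by -642 bp, and 3.01% of the genes shifted further in that direction. MAVS (-67 bp) and TRIM25 (-219 bp) had the same call for the downstream edge, while EIF2AK2 (-157 bp, with 1 DMSO and 1 ACBI1 sample of H1975 both at 596 bp) and IFIH1 (11.8 bp) did not. None of these 5 genes had the call for the upstream edge. The edge comparison was added after the lists had been seen.

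Farther from the start, all 3 distal regions of the H1975 DMSO samples around RIGI and 2 of the 3 in HCC44 were lost. A region is the union of overlapping peaks of 1 line, called lost when both DMSO samples and neither ACBI1 sample held a peak, and retained when all 4 did. Peaks at chr9:32424666-32425006 and chr9:32426383-32427681, both inside the neighbouring gene ACO1 and about 101 and 99.2 kb from the RIGI start, were lost in H1975 and in HCC44. With a minimum −log10 q of 20 neither was still in both H1975 DMSO lists, and only the first was still in both HCC44 DMSO lists, where it was lost. The first stood at the 33.2nd and 4.55th percentile of the H1975 DMSO lists and at the 61.1st and 47.9th of the HCC44 DMSO lists. A region inside RIGI itself, 23.2 kb from the start (chr9:32502592-32503322), was 699 and 731 bp wide in HCC44 with DMSO, at the 75.3rd and 70.4th percentile. It was held by 1 HCC44 ACBI1 sample, at 489 bp and the 12.2nd percentile, and in H1975 by 1 DMSO sample. Surrounding peaks of RIGI numbered 7 and 6 against 3 and 4 in H1975 and 6 and 6 against 4 and 3 in HCC44.

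**Figure D3:**
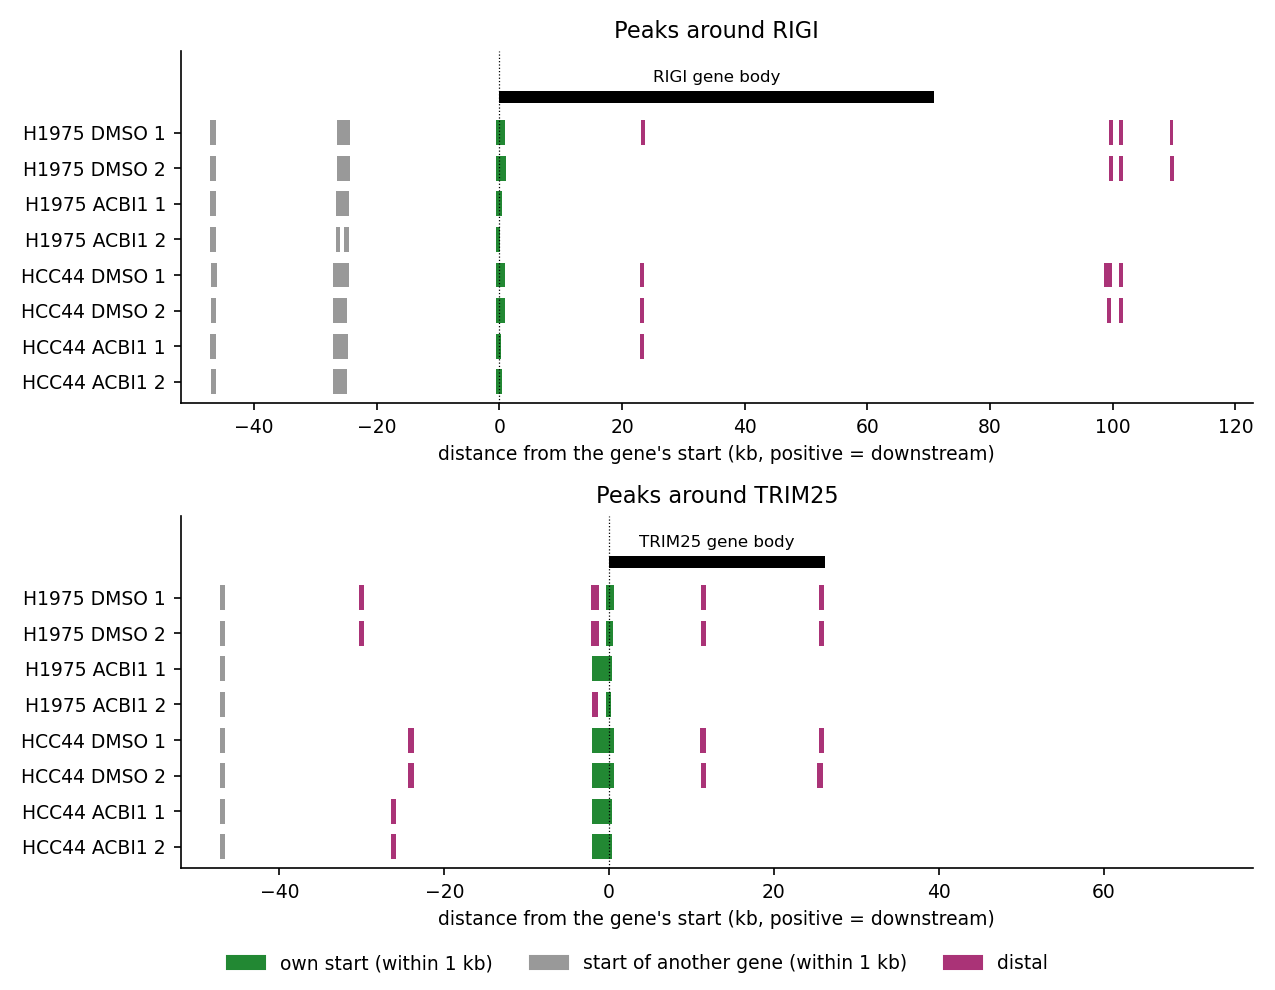
Peaks around RIGI (above) and TRIM25 (below) in the 8 samples (rows) by distance from the gene's start (x axis, kb, positive downstream), with the gene body as a black bar; peaks narrower than 0.6 kb are drawn at 0.6 kb. Green peaks lie at the gene's own start, grey ones at another gene's start and purple ones are distal. The purple peaks inside TRIM25 and those about 100 kb downstream of the RIGI start, beyond the gene's end, were listed with DMSO and not with ACBI1 in either line.

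IFIH1 (chromosome 2, 162267074 to 162318684, minus strand) showed no such narrowing of the peak over its start. Its upstream 250 bases, chr2:162318685-162318934 on the minus strand, are shown because they alone among the windows of the 7 genes matched the interferon-stimulated response element searched for, GAAANNGAAA on either strand. There were 3 matches, in capitals, with first bases 159, 153 and 21 bases before the start; the first 2 overlap.
IFIH1: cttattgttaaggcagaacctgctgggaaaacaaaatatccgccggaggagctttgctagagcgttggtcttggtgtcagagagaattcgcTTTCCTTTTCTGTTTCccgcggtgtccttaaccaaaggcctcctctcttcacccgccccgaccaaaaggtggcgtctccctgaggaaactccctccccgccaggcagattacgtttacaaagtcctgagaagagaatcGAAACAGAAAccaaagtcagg
Such a match was present in 2.71% of 22155 start windows of this length. It is a description of letters and not of a bound factor.

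The IFIH1 promoter peak was 1169 and 1085 bp wide against 1147 and 1007 bp in H1975. In HCC44 it was 1090 and 1045 bp against 1139 and 1080 bp. The widths overlapped in both lines, and the log2 change over both was -0.01 (exact permutation p = 0.944). The peak ranked at the 87.5th and 83.2nd percentile against the 73.5th and 43.9th in H1975. In HCC44 it ranked at the 89.1st and 80.7th against the 65th and 65.4th. These ranks come from lists of different lengths, so a change in strength was not tested. The start of IFIH1 lies 78 bp from the gene GCA, so the peak cannot be assigned to one of them. Surrounding peaks numbered 4 and 4 against 2 and 3 in H1975 and 3 and 3 against 2 and 2 in HCC44. The region chr2:162261194-162261815, 57.2 kb from the start and beyond the gene's end, was lost in both lines, and with a minimum −log10 q of 20 was no longer in both DMSO lists of either. A wider one in H1975, chr2:162244634-162245945, stood at the 53.3rd and 48th percentile with DMSO and was lost there.

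DHX58 (chromosome 17, 42101411 to 42112714) was the only one of the 7 genes with a promoter peak in both H1975 DMSO samples that did not keep it in both ACBI1 samples. Its start is not in the table used, so both gene ends were taken. The peak over the end at 42112714 was 861 and 756 bp wide in the H1975 DMSO samples, 703 bp in 1 ACBI1 sample and not listed in the other. It ranked at the 35.5th and 36.2nd percentile with DMSO and at the 18.3rd in the ACBI1 sample that held it, below the median promoter peak. In HCC44 it was kept, at 881 and 841 bp against 818 and 737 bp. The gene KAT2A lies 396 bp from this end. At the opposite end, HCC44 held a small peak of 291 and 337 bp against 532 and 528 bp, which H1975 lacked in all 4 samples. Summed over both ends, the width in HCC44 was higher in both ACBI1 samples.

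The strongest distal region lost around DHX58 lay in the neighbouring gene RAB5C at chr17:42133070-42133929. It was 858 and 811 bp wide with DMSO in H1975 and 825 and 822 bp in HCC44. It stood at the 54.5th and 52.8th percentile of the H1975 DMSO lists and at the 87.3rd and 79.3rd of the HCC44 lists, and no ACBI1 sample held it. It was also lost in both lines with a minimum −log10 q of 20 and with lists of equal length. A region inside DHX58, chr17:42107690-42108145, was retained in HCC44. Surrounding peaks numbered 6 and 6 against 4 and 3 in H1975 and 10 and 9 against 6 and 6 in HCC44. One region in ZNF385C, chr17:42067386-42067774, was gained in H1975 at low rank (25.3rd and 4.92nd percentile), while HCC44 held it in all 4 samples.

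TLR3 (chromosome 4, 186069156 to 186088073, plus strand) had almost no listed peak. Its upstream window, chr4:186068906-186069155, is shown because it was the least GC-rich of those shown, at 39.2%, and carried 2 matches, in capitals, to the gamma-activated site TTCNNNGAA, present in 5.92% of start windows.
TLR3: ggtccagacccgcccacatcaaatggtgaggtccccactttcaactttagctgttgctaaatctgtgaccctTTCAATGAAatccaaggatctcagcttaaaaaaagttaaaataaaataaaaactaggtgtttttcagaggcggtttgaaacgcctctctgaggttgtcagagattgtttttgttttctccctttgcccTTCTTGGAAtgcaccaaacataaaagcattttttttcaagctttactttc
H1975 held 0 peaks in the TLR3 window in all 4 samples. In HCC44, 1 DMSO sample held a peak of 771 bp from -1012 to -242 bp relative to the start, at the 23.6th percentile, and 1 ACBI1 sample held a peak of 497 bp centred at -30.9 kb. No treatment comparison can be made at TLR3.

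ZBP1 (chromosome 20, 57603852 to 57620426) had no peak within 1 kb of either end in any sample. Inside the gene, chr20:57618009-57619219 was lost in both lines. This region was 335 and 330 bp wide in the H1975 DMSO samples, at the 47.7th and 45.9th percentile. In HCC44 it was 1125 and 1211 bp wide at the 73.9th and 90th percentile. It too was lost in both lines with a minimum −log10 q of 20; with equal list lengths it was lost in HCC44 and no longer in both DMSO lists of H1975. The ZBP1 neighbourhood was not lost as a whole. A region at chr20:57596858-57597380 was retained in both lines, and in HCC44 4 of the 6 distal regions of both DMSO samples were retained. Outside the gene, 1.48 kb from the end at 57620426, chr20:57621903-57622942 was retained in HCC44 and held by 1 ACBI1 sample in H1975. A region in PMEPA1, chr20:57654413-57654987, was gained in H1975 at the 9.78th and 3.84th percentile and was present in all 4 HCC44 samples. Surrounding peaks numbered 3 and 3 against 3 and 2 in H1975, which overlap, and 7 and 6 against 4 and 4 in HCC44.

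MAVS, the adaptor (chromosome 20, 3846834 to 3876118, plus strand), kept its promoter peak with small changes in width. The peak was 1234 and 1165 bp against 1193 and 1017 bp in H1975, which overlap, and 1308 and 1335 bp against 1291 and 1094 bp in HCC44. The log2 change over both lines was -0.14 (exact permutation p = 0.167). The peak ranked at the 90.3rd and 90.9th percentile against the 80.8th and 64.7th in H1975. In HCC44 it ranked at the 90.9th and 89.6th against the 85.3rd and 83.7th. Surrounding peaks numbered 11 and 10 against 8 and 7 in H1975 and 8 and 8 against 5 and 6 in HCC44. Part of this fall came from the window's edge. The peak at the start of CDC25B was retained in both lines. It lay outside the window, uncounted, in both HCC44 ACBI1 samples and in H1975 ACBI1 replicate 2. With 25 kb either side the change at MAVS was -1 in each line. Of the distal regions retained in HCC44, chr20:3925700-3927741 reached into the window only through a peak of ACBI1 replicate 2. The upstream region chr20:3811241-3812189, centred at -35.1 kb in HCC44, was retained in both lines and stood at the 80.5th and 85th percentile of the HCC44 DMSO lists and at the 52.9th and 55.2nd of the ACBI1 lists. A region in PANK2, chr20:3899236-3899695, was lost in both lines from low ranks, 8.11 to 20.7, and with a minimum −log10 q of 20 was no longer in both DMSO lists of either. A stronger region, chr20:3806060-3808332, was lost in HCC44 from the 52.3rd and 52nd percentile. It was also lost there with a minimum −log10 q of 20. In H1975 the part at chr20:3807377-3808339 was retained. The part at chr20:3806044-3806479 was lost there, from the 6.09th and 1.85th percentile. A region inside MAVS at 8.18 kb, chr20:3854646-3855379, was retained in HCC44.

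TRIM25, the ubiquitin ligase (chromosome 17, 56887909 to 56914049, minus strand), lost both distal regions inside its gene body in both lines. Its upstream window, chr17:56914050-56914299 on the minus strand, is shown as the most GC-rich of those printed, at 72.4%, with 3 GC boxes in capitals, 2 of which overlap; a GC box was present in 53.7% of start windows.
TRIM25: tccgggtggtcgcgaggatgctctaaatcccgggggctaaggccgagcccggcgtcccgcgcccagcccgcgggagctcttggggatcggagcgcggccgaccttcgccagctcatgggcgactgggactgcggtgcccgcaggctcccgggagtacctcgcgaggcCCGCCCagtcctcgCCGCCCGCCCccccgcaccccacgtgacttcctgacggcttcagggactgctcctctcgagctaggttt
The region 11.4 kb into the gene, chr17:56902348-56902986, was 521 and 426 bp wide with DMSO in H1975 and 639 and 489 bp in HCC44. It stood at the 44.9th and 50th percentile in H1975 and at the 63.5th and 71.1st in HCC44, and was in no ACBI1 list. The region near the gene's end, chr17:56888087-56888775, stood at the 70.6th and 67th percentile in H1975 and at the 32.2nd and 31.9th in HCC44, and was in no ACBI1 list either. Both were lost in both lines with a minimum −log10 q of 20 as well. With equal list lengths the region near the gene's end was lost in H1975 and the one 11.4 kb into the gene in HCC44. Each was then no longer in both DMSO lists of the other line. A region in COIL, chr17:56939991-56940367, was the only one gained in HCC44.

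The width of the TRIM25 promoter peak as listed cannot be compared in H1975. In 1 ACBI1 sample the peak over the start was joined to a second one about 1.7 kb upstream and measured 2518 bp, while the other H1975 samples had the 2 apart, with 1016 and 890 bp (DMSO) and 612 bp (ACBI1) over the start. In HCC44 the joined peak measured 2692 and 2746 bp against 2473 and 2470 bp. When peaks within 1200 bp were joined in every list, the H1975 widths were 2756 and 2625 bp against 2518 and 2345 bp, lower in both ACBI1 samples. The downstream edge is not touched by the joining. It lay 612 and 486 bp into the gene against 391 and 232 bp in H1975. In HCC44 it lay at 575 and 614 bp against 397 and 391 bp, without overlap. Surrounding peaks numbered 6 and 6 against 2 and 3 in H1975 and 5 and 5 against 3 and 3 in HCC44.

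EIF2AK2, the gene of the kinase PKR (chromosome 2, 37099210 to 37156980, minus strand), kept its promoter peak in every sample. In H1975 it was 1112 and 893 bp wide against 1058 and 741 bp, which overlap. In HCC44 it was 1150 and 1134 bp against 1093 and 899 bp. The region chr2:37189687-37190460, in SULT6B1 on the upstream side of the EIF2AK2 start, was lost in both lines, from the 68.1st and 57.4th percentile in H1975 and the 53.2nd and 52.6th in HCC44. A region inside EIF2AK2 about 52.9 kb from the start, chr2:37103742-37104444, was lost in HCC44 from the 43.9th and 72nd percentile, and in H1975 was held by 1 ACBI1 sample. Surrounding peaks numbered 7 and 7 against 5 and 4 in H1975 and 7 and 6 against 4 and 3 in HCC44.

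ADAR (chromosome 1, 154582057 to 154627997, minus strand) had the smallest mean change in surrounding peaks, -0.5, of the 8 genes with such peaks in both lines. That order depended on the window: with 100 kb either side the change at ADAR was -2 in H1975 and -4 in HCC44. With a minimum −log10 q of 20 it was -1.5 in HCC44, where both ACBI1 samples were then lower. The peak over its upstream starts was 870 and 1030 bp against 1186 and 938 bp in H1975, which overlap. In HCC44 it was 834 and 952 bp against 1036 and 1078 bp, so that there both ACBI1 samples were wider. The peak over the internal start at 154608797 did the opposite. It was 1414 and 1366 bp against 1288 and 1023 bp in H1975 and 2214 and 2262 bp against 1287 and 1284 bp in HCC44. The difference between the 2 starts was not tested. Both distal regions of the HCC44 DMSO samples, chr1:154546545-154547215 and chr1:154669772-154670556, were retained, at percentiles between 45.5 and 70.3. The 1 distal region of H1975, chr1:154553458-154553807, was lost. Surrounding peaks numbered 5 and 4 against 5 and 3 in H1975 and 7 and 6 against 6 and 6 in HCC44.

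Counted over the genes, promoter peaks of both DMSO samples were kept in both ACBI1 samples for 6 of 7 genes in H1975 and for 7 of 7 in HCC44, against 95.9% and 92.9% of all genes. The promoter peak was narrower in both ACBI1 samples for 1 of 6 genes in H1975 (RIGI), where 52.5% of all genes were narrower, and for 5 of 7 in HCC44 (RIGI, MAVS, TRIM25, EIF2AK2 and ADAR, with widths summed over starts), against 70%. The H1975 count rested on single samples. It was 6 without ACBI1 replicate 1, 4 without DMSO replicate 2 and 2 without ACBI1 replicate 2. The promoter peak was wider for 0 of 6 genes in H1975 and 1 of 7 in HCC44 (DHX58, summed over both gene ends), against 3.7% and 6.16%. Over the DHX58 end at 42112714 alone, both HCC44 ACBI1 samples were narrower, at 881 and 841 bp against 818 and 737 bp. Both HCC44 counts thus depend on taking both ends of this gene. As listed, RIGI was the 1 gene of 6 that was narrower in both lines, against 44.2% of all genes. With peaks joined within 1200 bp, RIGI and TRIM25 were narrower in both lines, against 45.3% of all genes. The median log2 change in promoter width was -0.105 in H1975 and -0.153 in HCC44 for the 9 genes where measured, and -0.189 and -0.228 for all genes.

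In H1975, 24 distal regions around the 9 genes were in both DMSO samples, of which 17 (70.8%) were lost, 5 retained and 2 held by 1 ACBI1 sample. Across the genome 51.3% of 27007 such regions were lost. In HCC44, 14 of 27 (51.9%) were lost and 11 retained, against 63.9% of 33576 across the genome. The share thus lay above the genome's in one line and below it in the other. Regions are not replicates, and no test was made of these shares. Over the 4 pairings of a DMSO with an ACBI1 sample, the lowest and highest shares were 71.4% and 76.9% in H1975, and 53.8% and 64.5% in HCC44. Of the regions at starts, those of neighbouring genes included, 19 of 20 (95%) were retained in H1975 and 22 of 23 (95.7%) in HCC44, near the 94% and 90.7% of all such regions in the genome.

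**Figure D4:**
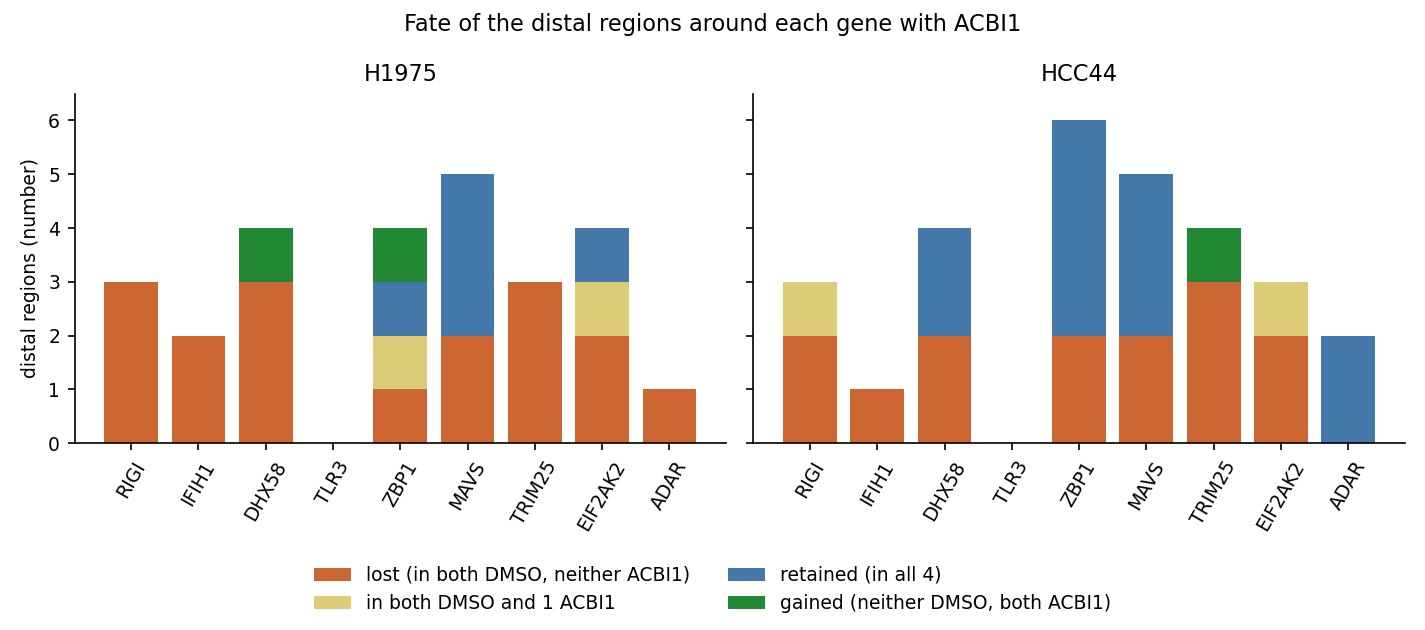
Number of distal regions around each gene (y axis) by fate with ACBI1 (colours) in H1975 (left) and HCC44 (right); regions listed in 1 DMSO sample, or in ACBI1 alone but not in both samples, are left out. RIGI, IFIH1 and TRIM25 had lost distal regions in each line and no retained one, MAVS kept 3 in each, and ZBP1 kept 4 of 6 in HCC44.

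Among the 16 distal regions held by all 4 DMSO samples, 10 (62.5%) were in none of the 4 ACBI1 samples, against 38.5% of 18523 across the genome. They were 2 each at RIGI, DHX58 and TRIM25 and 1 each at IFIH1, ZBP1, MAVS and EIF2AK2. The 2 retained in both lines were at MAVS and ZBP1. With a minimum −log10 q of 20, 9 of the 16 were still in all 4 DMSO samples and 6 of these were lost in both lines. With equal list lengths 2 were left, of which the RAB5C region near DHX58 was lost and the MAVS region was retained.

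With DMSO alone, the peak numbers of the lines did not overlap around 6 of the 9 genes; with 2 samples against 2 the smallest exact permutation p is 0.333. HCC44 held more surrounding peaks in both samples at DHX58, ZBP1 and ADAR, a direction seen for 36.9% of all genes, and H1975 at IFIH1, MAVS and TRIM25, seen for 17.1%. The TRIM25 call rested on how peaks were joined near its start, and with peaks joined within 1200 bp it was gone, leaving IFIH1 and MAVS. Other calls moved too. With equal list lengths HCC44 held more at RIGI, ZBP1 and ADAR, against 19.2% of all genes. H1975 then held more at IFIH1, MAVS, TRIM25 and EIF2AK2, against 26.5%. With 100 kb either side H1975 held more at RIGI and IFIH1, against 17.9%, while the HCC44 calls stayed the same, against 42.7%. With regions merged over both lines, 7 of 23 (30.4%) in H1975 had no counterpart in the DMSO samples of HCC44, and 9 of 27 (33.3%) in HCC44 had none in H1975, counting regions in both DMSO samples of a line. Over the genome these shares were 23.3% and 36.8%. Of the 7, 6 (85.7%) were lost with ACBI1, and of the 9, 2 (22.2%), where 70.3% and 73.6% of such regions in the genome were lost. This difference between the lines was not tested.

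A list of 62 other genes of RNA sensing, taken from knowledge of the pathway, shows where the 9 genes stand. Of the 60 with surrounding peaks, both ACBI1 samples held fewer for 25 in H1975, for 36 in HCC44 and for 16 in both lines. Over all genes the shares were 49.8%, 62.9% and 40.3%, and no count of the list lay above them. Both ACBI1 samples held more for 2 of the list in H1975 and 1 in HCC44, against 1.65% and 2.03% of all genes. Promoter peaks were kept for 50 of 55 in H1975 and 53 of 55 in HCC44, against 95.9% and 92.9% of all genes. The largest mean falls were at EIF2S1, which encodes the translation factor subunit that PKR phosphorylates (9 and 10 against 4 and 4 in H1975, 8 and 10 against 3 and 4 in HCC44), and at TRAF3, a ligase acting below MAVS (9 and 9 against 4 and 3, then 10 and 8 against 5 and 4). IFIT3 and IFIT2, neighbouring interferon-induced genes whose windows share peaks, followed with EIF2AK3 and EIF2AK4, which encode other kinases of the same translation factor. IFIT3 held 6 and 6 against 1 and 0 surrounding peaks in H1975 and 6 and 5 against 2 and 1 in HCC44. Promoter peaks of OAS1, whose product makes the messenger that activates RNase L, and of IFIT2 were in both DMSO samples and neither ACBI1 sample of each line. OAS2, IFIT3 and LGALS3BP kept theirs in 1 ACBI1 sample of H1975.

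By the sum of absolute differences in surrounding peaks over the 8 samples, the genes nearest to those with the largest falls, more than 1 Mb away, were PAK1 for RIGI and ANXA5 for TRIM25, each with a sum of 1. ZCCHC8 was among those with a sum of 1 from EIF2AK2, and MRPS18A had a sum of 2 from MAVS. MAPKAPK2, MYOM3 and SCMH1 were among 4 genes with a sum of 2 from DHX58.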

How the data were processed

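ATAC-seq peak lists of 8 samples, 1 list per sample with 9 columns and no header, were used as deposited. The submitters' processing notes name hg38 and BWA; the peak caller and its filters are not given in the sources used here. Libraries had 11 PCR cycles, per the labels' protocols. The columns were read in the broadPeak layout, in which the authors deposited for each peak a score, a fold enrichment (a ratio) and the −log10 p and −log10 q. The order is not labelled; the score was 10 times column 9, rounded down, in 99.9% to 100% of the rows of each list (rounded), and column 9 was taken as −log10 q. The lowest −log10 q was 10 to 10.2 in every list, and the smallest gap between peaks was 657 to 1153 bp, so joining differed between lists. The −log10 q gave the rank percentile within a list and was not compared between lists.

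Gene positions, starts and 250-base upstream sequences came from RefSeq GRCh38.p14; 4158 genes without a listed start, DHX58 and ZBP1 included, were given both ends. Exons and introns were not analysed here. Peaks were counted where they overlapped a window by at least 1 bp, and regions were merged within a line. A call needed both ACBI1 samples below both DMSO samples. Genes were named as all 9, plus from the list of 62 up to 6 lower in both lines by mean fall and those that did not keep a promoter peak. Per gene and line up to 3 lost and 2 gained distal regions were taken by rank, plus up to 3 genes alike. Of the regions, a part is printed. The genes and lists were chosen with earlier results of these data known. Alternatives were a minimum −log10 q of 20, equal list lengths, joining within 1200 bp, other windows, 50% cover, omission of each replicate in turn and a replicate block. Python 3.11.15, numpy 2.4.6, pandas 2.3.3 and matplotlib 3.10.9 were used, and the functions were tested on simulated data.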

Additional observations from a re-analysis of the deposited data

How the results depend on the processing

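The count of genes with fewer surrounding peaks fell with equal list lengths, to 2 where it had been 6 in H1975 and to 1 where it had been 7 in HCC44, and to 2 and 3 in gene bodies alone. The share of distal regions lost, 70.8% in H1975 and 51.9% in HCC44, was 64.7% and 61.1% with a minimum −log10 q of 20, 62.5% and 57.1% with equal list lengths, 66.7% and 58.8% with 25 kb either side, 62.2% and 46.7% with 100 kb, 75% and 57.1% in gene bodies alone, and 66.7% and 57.1% with a promoter window of 5 kb. Over the genome this share was 57.1% and 73.9% with a minimum −log10 q of 20 and 37.7% and 59.6% with equal list lengths. Joining within 1200 bp made 2 promoter peaks narrower in H1975 in place of 1. The count of genes higher in HCC44 with DMSO was 1 in gene bodies, and that higher in H1975 was 1 with 25 kb and 0 in gene bodies. Leaving out 1 replicate gave 6 to 8 and 7 to 8 genes with fewer peaks, 6 to 7 and 7 to 7 promoters kept, 70.8% to 76% and 51.9% to 59.3% of distal regions lost, 1 to 6 and 5 to 5 narrower promoters, and 3 to 4 genes higher in either line. With equal list lengths the change in surrounding peaks turned to 0.5 at RIGI and MAVS, 1 at ADAR and 1.5 at ZBP1 in H1975, and to 0.5 at IFIH1, 3 at DHX58, 1.5 at ADAR and 2 at ZBP1 in HCC44; it was 0.5 at MAVS in H1975 in the gene body, and at ADAR in H1975 it ran between -1.5 (without ACBI1 replicate 1) and 0.5 (without ACBI1 replicate 2). Equal lengths cut every list to 22133 peaks, so DMSO and ACBI1 lists no longer differed in length. With a minimum −log10 q of 20, 5 genes had fewer peaks in H1975 and 6 in HCC44, against 50.8% and 64.3% of all genes. Why the results moved with the setting was not tested. The fates of the 16 shared regions under these settings, the genome's shares under each alternative and the identity of the genes called there were chosen after seeing the data. With a replicate block the smallest exact permutation p is 0.125 in place of 0.0556, and the 6 genes had that value. The deviations of same-numbered samples correlated at 0.113 in H1975 and 0.045 in HCC44 over 19970 genes; the labels do not say that a number marks a shared batch or day, and with 2 replicates a group the pairing cannot be told. Read depth is unknown, which limits what a missing peak shows.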
